A study of Mus musculus with 2 samples.

Results

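The genes described here encode the plasma-membrane and lysosomal carriers of amino acids in the SLC1, SLC3, SLC7, SLC36, SLC38 and SLC43 families. Members were all genes whose symbol is Slc1a, Slc3a, Slc7a, Slc36a, Slc38a or Slc43a followed by a number, with Slc38a4 left out. Of 18193 genes read by a probe set that names a single gene, 39 were members, and they were read by 84 of the 45101 probe sets. Slc38a8 and Slc38a11 also match the rule and were not analysed here. The samples were fibroblasts cultured from mouse embryos (MEFs) that carried the p27delta51 allele of Cdkn1b or were wild type. The product of Cdkn1b is p27, which restrains cyclin-dependent kinases. Cells of both genotypes were grown in medium with 10% fetal bovine serum. They were then held for 72 h in medium lacking serum to bring them to quiescence. Total RNA of each genotype was hybridised to 1 Affymetrix array. The labels do not say how many embryos or cell lines stood behind each array.

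Cells cannot make the essential amino acids, and charged or polar amino acids cross membranes only through carriers. SLC7 carriers of the light-chain branch reach the cell surface only when bound to a heavy chain of the SLC3 family, and many of them swap an internal amino acid for an external one. SLC1 and SLC38 carriers use the sodium gradient to concentrate glutamate, glutamine, alanine and serine in the cell, and several SLC36 and SLC38 members sit on lysosomes, where amino acids are sensed by the kinase complex mTORC1. When amino acids run short, the transcription factor ATF4 is known to raise the transcripts of several of these carriers.

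The values are signal intensities of the brightest probe set of each gene, brightest meaning the highest mean over both arrays. A control floor was set on each array as the highest signal of 27 probe sets for bacterial transcripts, 14.8 for p27delta51 and 11.8 for wild type, and a signal at or below it was not told apart from background. Genes with a mean signal of at least 22.2, the median of all probe sets, were kept for counts. This left 25 members of the 39 and 11159 genes in all. The fold given is the brighter signal over the dimmer, or at least the brighter signal over the floor where the dimmer lay at or below the floor. With 1 array per genotype nothing could be tested, no SD exists and the differences lack any check by replicates. Signals of different probe sets are not comparable with each other as transcript levels. In whole cultures, fewer cells of a type and less RNA per cell cannot be told apart.

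The checks on the arrays gave mixed results. The 2 probe sets for Cdkn1b differed in opposite directions, 1.6 in p27delta51 against 62.0 in wild type and 1016 against 542, and their place relative to the part of the gene altered in the allele was not established. All 11 fibroblast markers read on the arrays were above the floor in both genotypes, but 3 of them passed 2-fold upward and 1 downward. Prrx1 gave 1196 against 90.9, Pdgfra 529 against 138 and Postn 1794 against 852, while Thy1 gave 18.6 against 279. The 8 macrophage markers summed to 133 in p27delta51 and 148 in wild type, with Ptprc, Itgam, Fcgr1 and Aif1 at the floor on both arrays. Sums add different probe sets, and some rest mostly on 1 bright marker. The 6 chondrocyte markers summed to 124 in p27delta51 and 4443 in wild type, and 3 and 5 of them respectively were above the floor. Of these markers 4 passed 2-fold downward, with Cnmd at 0.8 against 2668 and Col2a1 at 22.1 against 826. Acan gave 46.5 against 613 and Sox9 33.6 against 314. The only 1 past 2-fold upward, Matn1, was at the floor on both arrays. The 9 astrocyte and neural markers summed to 313 and 1765, with 6 above the floor on each array and S100b and Nefl at the floor on both. Map2 alone gave 56.8 against 1378 and Nes 17.2 against 206, while Sox2 went the other way, at 71.8 against 7.8. The 8 epithelial markers summed to 140 and 287, with 3 and 5 above the floor, Krt19 at 13.7 against 177 and Epcam at 60.7 against 26.4. The 7 endothelial markers summed to 49.8 and 92.3 and the 6 skeletal muscle markers to 115 and 269, with Pecam1, Cdh5 and Vwf and with Myod1, Myog and Myh3 at the floor on both arrays. Acta1 gave 47.9 against 226 and Des 36.8 against 27.6, while the 5 adipocyte markers summed to 101 and 98.2. Those near-equal sums hid opposite differences, with Fabp4 at 82.0 against 32.4 and Pparg at 1.5 against 48.9. Of the adipocyte markers, 1 was above the floor in p27delta51 and 3 in wild type. Xist, the RNA that coats the silenced X chromosome, gave 876 and 25.8, and of the genes on the Y chromosome Kdm5d gave 1.2 against 213, Uty 3.1 against 142 and Eif2s3y 6.9 against 424.5, each at the floor in p27delta51. The cultures thus differed in sex-linked transcripts, and for every carrier a difference by sex and one by genotype cannot be told apart. These differences moved together with those of the carriers, and their part in the carrier differences was not tested.

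Most carriers that were measurable in these fibroblasts gave a dimmer signal in p27delta51 than in wild type. The 2-fold limit was passed downward by 7 of 25 kept members (Slc1a1, Slc38a1, Slc7a3, Slc43a1, Slc1a6, Slc43a3 and Slc7a5), against 8.77% of all kept genes. Only Slc1a3 was at least 2-fold higher among the kept members, against 10.8% of all kept genes, and 17 lay between. By any amount 19 of the 25 were lower, against 44.3% of all kept genes. The median log2 difference, p27delta51 minus wild type, was -0.69 for the kept members, with quartiles at -1.24 and -0.12, and 0.079 for all kept genes. These counts describe 2 arrays, and 4 members passed the brightness limit through 1 array alone. They were Slc1a1, Slc38a1, Slc7a11 and Slc43a2. Slc1a1 and Slc38a1 among them are counted in the 7.

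In the authors' deposited table, 15 of the 25 kept members carried a decrease call, 1 an increase call and 9 no change. Over all kept genes the authors' decrease or marginal decrease call was carried by 20.6% and the increase or marginal increase call by 27.3%. The authors' table compares the same 2 arrays and adds no replicate. All 14 members below the brightness limit carried a no-change call there.

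**Figure D1:**
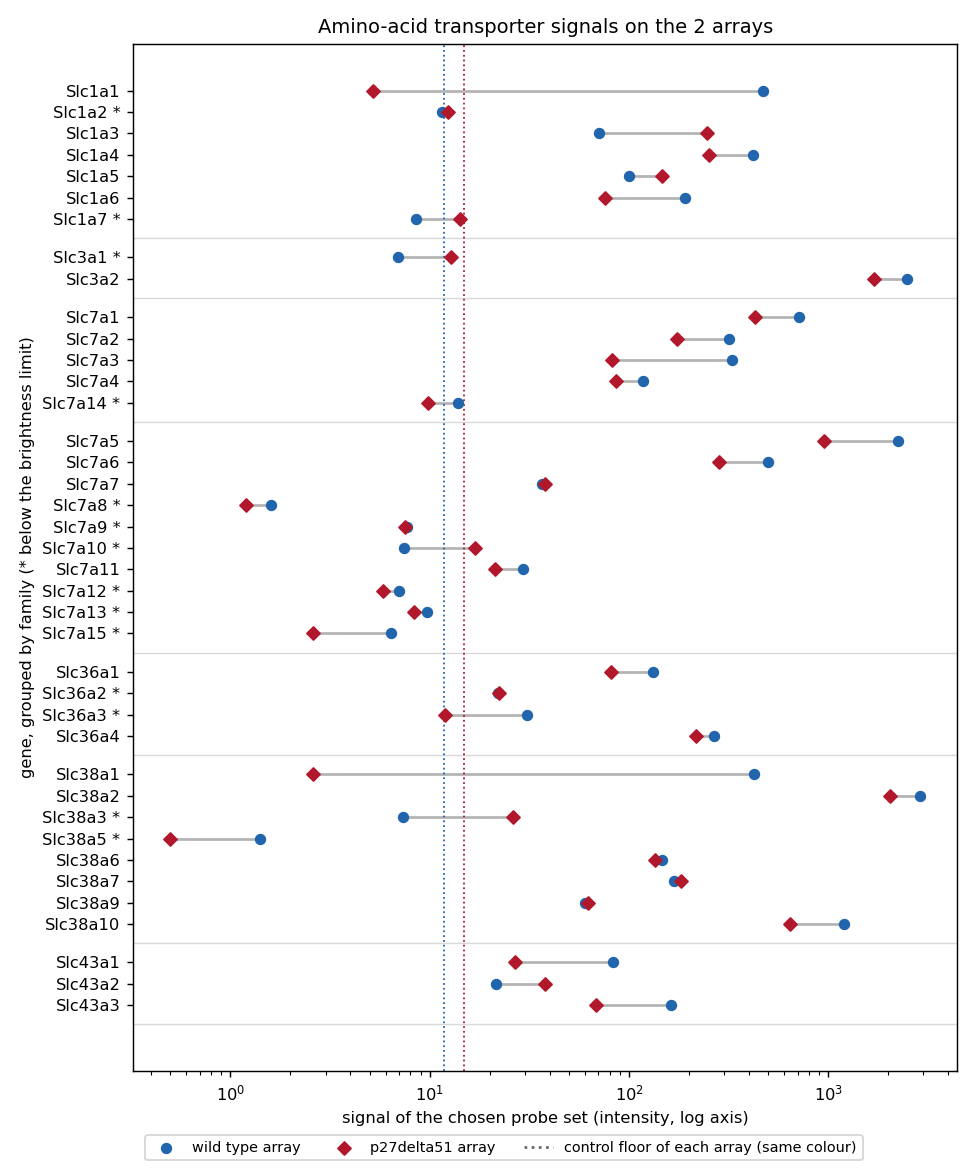
Signal of the chosen probe set of each of the 39 members (log axis) on the p27delta51 array (diamonds) and the wild type array (circles), grouped by family, with each array's control floor as a dotted line and members below the brightness limit starred. Slc1a1 and Slc38a1 lie at the floor in p27delta51 and at 468 and 424 in wild type, while Slc1a3 is brighter in p27delta51.

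**Figure D2:**
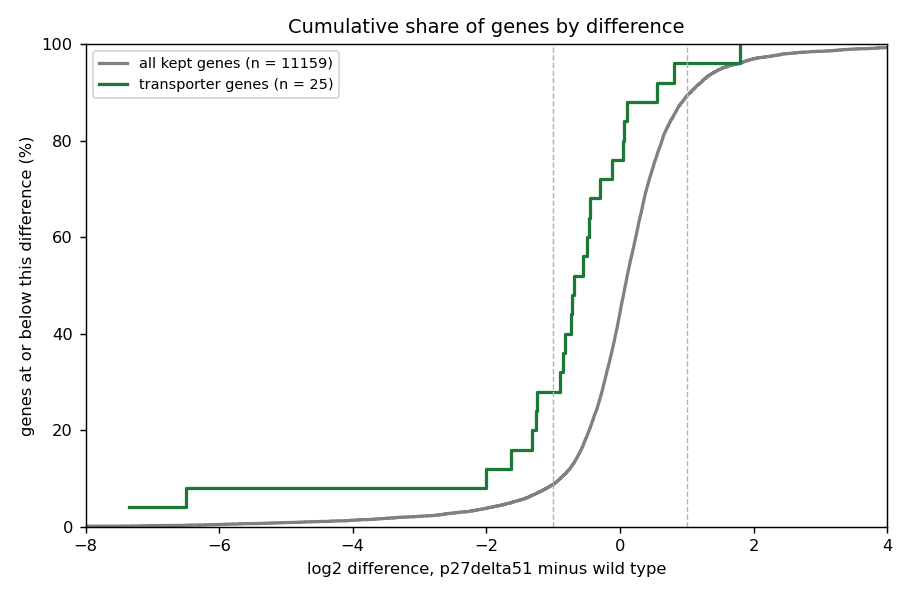
Cumulative share of genes (%) by log2 difference, p27delta51 minus wild type, for the 25 kept members and all 11159 kept genes, with dashed lines at 2-fold. The curve of the carriers lies to the left of that of all genes over most of its range, with medians of -0.69 and 0.079, and its leftmost steps, Slc38a1 and Slc1a1, rest on signals under the floor.

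Upstream sequences are shown for the lower member with the largest bound (Slc1a1) and for the single kept member at least 2-fold higher (Slc1a3). They are also shown for carriers of cationic and of small neutral amino acids that hold a searched motif (Slc7a1 and Slc38a2). Each is the run of 250 bases before an annotated transcript start, from RefSeq on build GRCm38.p6, written 5′ to 3′ on the gene's strand. Capitals mark a match to any of 4 motifs searched on both strands: the amino-acid response element TGATGNAA, bound by ATF4, the antioxidant response element TGACNNNGC, bound by NRF2, the AP-1 element TGANTCA and the E-box CACGTG.
Slc1a1, chr19:28834885-28835134, plus strand: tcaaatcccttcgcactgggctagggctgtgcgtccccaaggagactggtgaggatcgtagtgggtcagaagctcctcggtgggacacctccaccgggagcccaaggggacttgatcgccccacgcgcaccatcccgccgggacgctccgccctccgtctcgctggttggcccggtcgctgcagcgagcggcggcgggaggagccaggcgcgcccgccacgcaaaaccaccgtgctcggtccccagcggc
Slc1a3, chr15:8710808-8711057, minus strand: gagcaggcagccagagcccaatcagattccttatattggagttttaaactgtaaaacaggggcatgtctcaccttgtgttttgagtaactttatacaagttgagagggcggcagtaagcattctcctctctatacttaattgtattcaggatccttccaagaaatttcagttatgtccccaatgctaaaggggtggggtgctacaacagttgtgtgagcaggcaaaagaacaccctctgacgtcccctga
Slc7a1, chr5:148399905-148400154, minus strand: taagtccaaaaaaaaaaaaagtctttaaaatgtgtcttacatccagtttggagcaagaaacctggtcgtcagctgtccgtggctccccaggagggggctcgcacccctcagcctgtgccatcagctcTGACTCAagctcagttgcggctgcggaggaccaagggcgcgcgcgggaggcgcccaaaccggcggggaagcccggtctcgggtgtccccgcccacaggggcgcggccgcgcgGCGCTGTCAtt
Slc38a2, chr15:96699729-96699978, minus strand: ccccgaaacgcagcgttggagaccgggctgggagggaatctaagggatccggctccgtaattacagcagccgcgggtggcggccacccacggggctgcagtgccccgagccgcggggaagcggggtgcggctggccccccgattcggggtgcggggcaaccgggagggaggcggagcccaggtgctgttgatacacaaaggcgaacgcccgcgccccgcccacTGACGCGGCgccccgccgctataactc

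Upstream windows were found for 28 of the 39 members, 37 windows in all, and for 18 of the 25 kept members. Among the members at least 2-fold lower, Slc38a1, Slc7a3, Slc7a5 and Slc43a3 had no window, so they were not searched for motifs. The windows of Slc1a1 and Slc1a3 held no match to the 4 motifs. In the window of Slc7a1 shown, an AP-1 match began 123 bases and an antioxidant match 11 bases upstream of its start. The window of another annotated start of Slc7a1, not shown, held no match. In Slc38a2 an antioxidant match began 27 bases upstream. The E-box was held by 16% of the 25 windows of kept members and by 6.02% of all 32851 windows, the antioxidant element by 16% against 10.2%, the AP-1 element by 12% against 6.75%, and the amino-acid response element by 12% against 3.45%. Over all 37 member windows, kept or not, these shares were 18.9%, 10.8%, 10.8% and 8.11% in the same order. Slc1a7, Slc38a5 and Slc7a14, below the brightness limit, also held an E-box, so the E-box share was not particular to kept members. Several windows of a gene can overlap, so windows are not independent. The amino-acid response element was found in 2 kept members, Slc7a11 and Slc7a7. The E-box was found in 4 of them, Slc1a6, Slc36a1, Slc38a7 and Slc43a1. The matches of Slc7a11, a pair facing each other, and those of the 4 kept members with an E-box are shown with their flanks. The matches of Slc7a7 began 243 and 141 bases upstream in different windows and are not shown. In Slc38a7 the capitals before the E-box are an AP-1 match.
Slc7a11, chr3:50443652-50443680, minus strand: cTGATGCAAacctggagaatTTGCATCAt
Slc1a6, chr10:78780454-78780479, plus strand: cccccgcaccCACGTGagctcaaggc
Slc36a1, chr11:55204299-55204324, plus strand: aatggagcggCACGTGacctgggcta
Slc38a7, chr8:95853515-95853541, minus strand: tcatgTGATTCAggctCACGTGttact
Slc43a1, chr2:84840249-84840274, plus strand: ggtctccctcCACGTGgcagccgtgg
The windows these short stretches come from overlap the annotated span of their own gene. A match is a description of the letters and was not tied to binding in these cells. The median GC content was 62.4% in windows of kept members, 52.0% in the 12 windows of members below the brightness limit and 52.4% in all windows.

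The SLC1 family holds both the lower member with the largest bound and the single kept member at least 2-fold higher. Slc1a1, the glutamate and cysteine carrier EAAC1, gave 5.2 (p27delta51) against 468 (wild type), at least 31.6-fold lower. Its other probe sets gave 16.3 against 312, a measured 19.2-fold with the dimmer signal close to the floor, and 1.8 against 127, at least 8.57-fold. All 3 probe sets of Slc1a1 were thus near or under the floor in p27delta51 and clearly above it in wild type. The authors' log2 ratios for them in the authors' deposited table were -6.4, -3.9 and -6.3.

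Slc1a3, the glutamate and aspartate carrier GLAST best known from astrocytes, gave 245 (p27delta51) against 71.0 (wild type), 3.45-fold higher. Its 4 probe sets above the brightness limit all lay higher in p27delta51, from 0.99 to 1.79 on the log2 scale, and 436 of all kept genes (3.91%) lay as far or farther up. The authors' deposited table gave it a log2 ratio of 1.1 and an increase call. Of the astrocyte and neural markers, Gfap gave 22.3 and 21.5, Aldh1l1 gave 19.4 and 16.1, Aqp4 gave 14.5, at the floor, and 12.2, just above it, and S100b was at the floor on both arrays. In the same list Sox2 was at least 6.08-fold higher in p27delta51, as Slc1a3 was, and Nes was 12-fold lower. The part of such cells in the Slc1a3 difference was not tested.

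Slc1a6, the glutamate carrier EAAT4 known from Purkinje cells, gave 76.0 (p27delta51) against 190 (wild type), 2.50-fold lower by its single probe set. Slc1a4, the alanine, serine and cysteine exchanger ASCT1, gave 252 against 418, 1.66-fold lower, and its other probe sets gave 2.06-fold and 2.03-fold. Its 3 probe sets were therefore on 1 side of 0 and on both sides of the 2-fold limit. Slc1a5, the glutamine exchanger ASCT2, gave 147 against 100.4, 1.46-fold higher, with a no-change call in the authors' deposited table. Slc1a2 and Slc1a7, glutamate carriers of astrocytes and of the retina, were at the floor on both arrays, at 12.3 and 11.5 and at 14.2 and 8.5.

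The heavy chain Slc3a2 and its light chain Slc7a5, which together form the large neutral amino-acid exchanger LAT1, were both dimmer in p27delta51. Slc7a5 gave 951 (p27delta51) against 2246 (wild type), 2.36-fold lower, and the authors' deposited table listed -1.4 as its log2 ratio. As far or farther down lay 773 of all kept genes (6.93%). Slc3a2, also called CD98 or 4F2hc, gave 1693 against 2480, 1.47-fold lower. Both rest on a single probe set. Slc3a1, the heavy chain of kidney and gut, was at the floor on both arrays, at 12.8 and 6.9.

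Among the other light chains, Slc7a6, a partner of Slc3a2 that exchanges cationic for neutral amino acids, gave 282 (p27delta51) against 500 (wild type), 1.77-fold lower. Its second probe set gave 277 against 388. Slc7a7, a relative with the same kind of exchange, gave 38 against 36.6, and its second probe set lay on the other side of 0, at 28.5 against 39.3. Slc7a11, the cystine and glutamate exchanger xCT and a known target of ATF4 and NRF2, gave 21.2 against 29.2, both within 3-fold of the floors. The authors' deposited table gave Slc7a11 a log2 ratio of 0.2, so its direction was not settled. Slc7a8, Slc7a9, Slc7a12, Slc7a13 and Slc7a15 were at the floor on both arrays, with signals between 1.2 and 9.7. Slc7a10, a carrier of small neutral amino acids, gave 16.8 (p27delta51) against 7.4 (wild type), at least 1.42-fold higher and close to the floor.

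The cationic branch of SLC7 carries arginine, lysine and ornithine without a heavy chain. By the chosen probe set all 4 of its kept members were lower in p27delta51, Slc7a4 with a no-change call in the authors' deposited table. Slc7a3 (CAT3) gave 81.9 (p27delta51) against 330 (wild type), 4.03-fold lower by its single probe set. Among all kept genes, 373 (3.34%) lay as far or farther down. Slc7a3 lies on the X chromosome, and the part of the Xist difference in this value was not tested.

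Slc7a1 (CAT1), the main arginine carrier of many cell types and the receptor of ecotropic murine leukaemia virus, gave 430 against 708, 1.65-fold lower. A second probe set of Slc7a1 gave 244 against 658, 2.70-fold lower, and another, below the brightness limit, gave 18.4 against 20.7. The size of this difference therefore depended on the probe set while the side did not. Slc7a2 (CAT2) gave 174 against 316, 1.81-fold lower, and its 4 probe sets lay between -0.86 and -0.44 on the log2 scale. Slc7a4, a member of the branch with no settled transport activity, gave 86.4 against 118, with a second probe set at 32.1 against 30.5. Another, below the brightness limit, gave 18.3 against 0.7, at least 1.55-fold higher and close to the floor. The side of the Slc7a4 difference thus depended on the probe set. Slc7a14 gave 9.8, at the floor, against 13.8.

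In SLC38 the system A carriers of glutamine and alanine differed in size. Slc38a1 (SNAT1) gave 2.6 (p27delta51) against 424 (wild type), at least 28.6-fold lower. Its suffix in the array's naming, _s_at, marks probes that may match more than a single transcript. The second probe set of Slc38a1 gave 35.9 against 264, above the floor on both arrays and 7.36-fold lower, and the authors' deposited table gave log2 ratios of -6.8 and -1.9. Both probe sets put it far lower in p27delta51, and the bound rests on the first.

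Slc38a2 (SNAT2), known for its induction when amino acids run short, gave 2035 (p27delta51) against 2880 (wild type), 1.42-fold lower. Its dimmer probe sets gave 230 against 541, 2.35-fold lower, and 35.3 against 70.6, 2.00-fold lower. No annotated protein-coding gene lies between Slc38a1 and Slc38a2 on chromosome 15, and the 2 neighbours were lower by at least 28.6-fold and by 1.42-fold.

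Slc38a10, a widely expressed member, gave 644 against 1196, 1.86-fold lower. Of its 6 probe sets above the brightness limit, 5 were lower and 1 was higher in p27delta51, at 78.3 against 54.2. By their chosen probe sets the lysosomal members of SLC38 lay close to 0. Slc38a9, the arginine sensor that acts upstream of mTORC1, gave 62.0 against 60.4, and its 4 probe sets above the limit lay between 0.038 and 0.57 on the log2 scale. With arrays centred on the median the log2 difference of the chosen probe set of Slc38a9 was -0.029. The mean of its probe sets above the limit, without centring, was 0.33. The direction of Slc38a9 was thus not settled. Slc38a7, which exports glutamine from lysosomes, gave 181 against 168, and Slc38a6 gave 134 against 146. Slc38a3, the system N glutamine carrier best known from liver, kidney and astrocytes, gave 26.3 (p27delta51) against 7.3 (wild type), at least 2.23-fold higher, with a no-change call in the authors' deposited table. Slc38a5 was at the floor on both arrays, at 0.5 and 1.4.

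Of the 4 proton-coupled SLC36 carriers, 2 were kept, and both were lower in p27delta51 by less than 2-fold. Slc36a1 (PAT1), a lysosomal exporter of small neutral amino acids, gave 81.6 (p27delta51) against 131 (wild type), 1.61-fold lower. Slc36a4 (PAT4) gave 216 against 267, and the authors' deposited table listed 0 as its log2 ratio. Slc36a2 gave 22.2 against 21.9. Slc36a3 gave 11.9, at the floor, against 30.8, at least 2.08-fold lower with a no-change call in the authors' deposited table.

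In SLC43, 2 neighbours on chromosome 2 were lower, and the remaining member was higher with a no-change call in the authors' deposited table. Slc43a1 (LAT3), which lets large neutral amino acids down their gradient, gave 26.9 (p27delta51) against 83.1 (wild type), 3.09-fold lower. Slc43a3, known as a carrier of purine nucleobases and not of amino acids, gave 67.9 against 163, 2.40-fold lower. The single protein-coding gene annotated between them, Rtn4rl2, gave 16.1 against 72.3, a log2 difference of -2.17. Positions were looked up after these values were seen. Slc43a2 (LAT4), on chromosome 11, gave 37.8 against 21.5, 1.76-fold higher, and its second probe set at the brightness limit gave 25.6 against 18.8. With log2 of the signal plus 32 the difference of Slc43a2 was 0.38, against 0.81 without it.

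**Figure D3:**
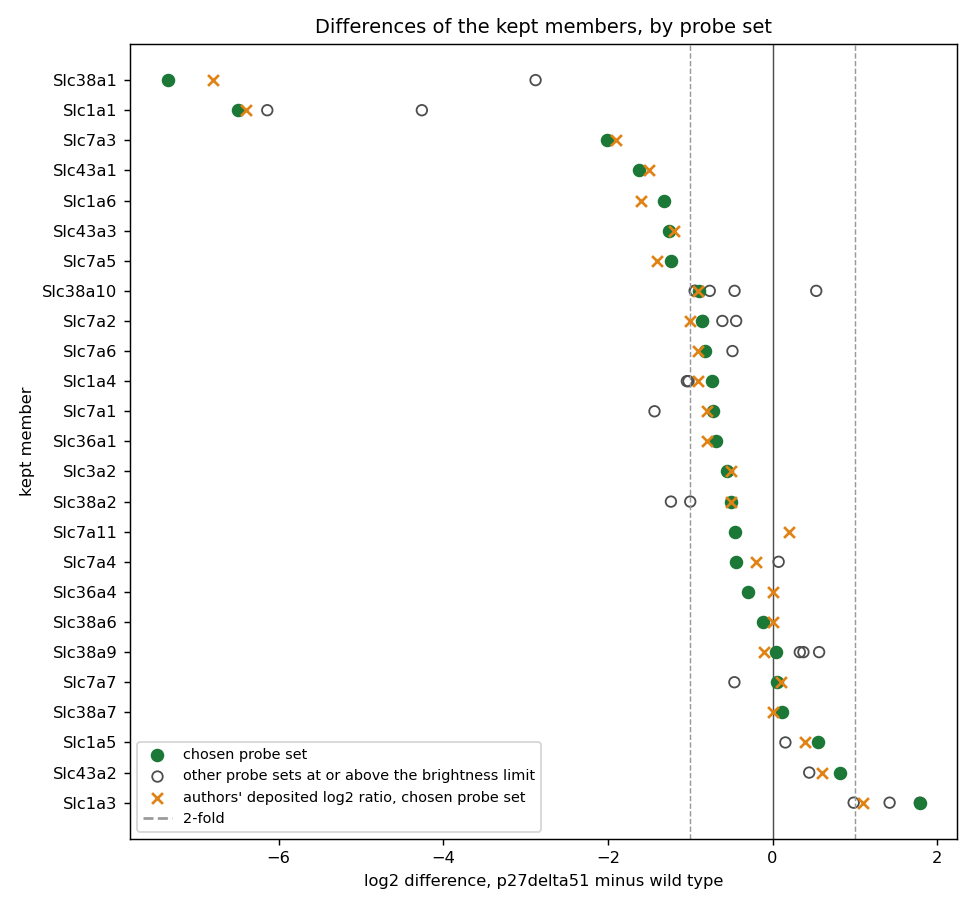
Log2 difference, p27delta51 minus wild type, of each of the 25 kept members: the chosen probe set (filled), other probe sets at or above the brightness limit (open) and the authors' deposited log2 ratio (crosses), with dashed lines at 2-fold. Probe sets of 11 of the 14 members with at least 2 of them fall on 1 side of 0, the exceptions being Slc7a4, Slc7a7 and Slc38a10, and the positions of the chosen probe sets of Slc1a1 and Slc38a1 rest on p27delta51 signals under the floor.

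Repeat measurements came only from several probe sets reading 1 gene, a technical repeat. The SD of their log2 differences had a median of 0.37 over the 14 kept members with at least 2 probe sets above the limit, and 0.23 over 5316 such genes in all. Within a gene this SD was 1.2 for Slc1a1 and 3.16 for Slc38a1, whose signals in p27delta51 lay at or near the floor. It holds no variation between cultures, so it does not show which differences would recur.

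Most genes listed as responding to a shortage of amino acids gave a dimmer signal in p27delta51. Of 27 kept ATF4 and amino-acid stress genes, 21 were lower by any amount, 5 passed 2-fold downward and 1 passed it upward, with a median log2 difference of -0.42. Over all kept genes 44.3% were lower by any amount, 8.77% passed 2-fold downward and 10.8% upward. Stc2 gave 32.1 (p27delta51) against 183 (wild type), 5.70-fold lower, and Nupr1 was 3.27-fold lower. Ddit4, an inhibitor of mTORC1 signalling, gave 1146 against 521, 2.20-fold higher. The kinase gene Eif2ak4, which senses uncharged tRNA, gave 144 against 88.1.

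Of 19 kept cytosolic aminoacyl-tRNA synthetase genes, which load amino acids onto tRNA, 16 were lower by any amount, against 44.3% of all kept genes. The 2-fold limit was passed by 0 in either direction, against 8.77% of all kept genes downward and 10.8% upward. The median of the list was -0.28. Tars and Vars were 1.72-fold and 1.65-fold lower, whereas Qars, for glutamine, gave 1400 against 760 and Kars was 1.42-fold higher. This list shifted by less than the carriers in its median, and its largest difference lay under 2-fold.

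The genes listed for mTORC1 and the sensing of amino acids upstream of it had a median log2 difference of 0.12. Of 25 kept genes 8 (32%) were lower by any amount, against 44.3% of all kept genes. The 2-fold limit was passed upward by 2 (8%) and downward by 1 (4%), against 10.8% and 8.77% of all kept genes. Sesn1, of the sestrin family that restrains mTORC1, gave 1526 (p27delta51) against 291 (wild type), 5.24-fold higher, and Fnip2 was 3.30-fold higher. Castor1, an arginine sensor, gave 110 against 277, 2.51-fold lower, short of 2-fold in the authors' deposited table at a log2 ratio of -0.9, and Rheb was 1.45-fold lower.

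Carriers outside the 6 families had only 6 kept genes of 22 on the array. Of these 2 (33.3%) were past 2-fold downward and 0 upward, against 8.77% and 10.8% of all kept genes. This one-sided count depended on the brightness limit, since over all 22 genes 6 were lower and 5 higher, and the median moved from -0.44 to -0.096, or to -0.72 with the upper-quarter filter. Slc6a6, the taurine carrier, gave 851 (p27delta51) against 1938 (wild type), 2.28-fold lower, and Slc6a17 was 2.25-fold lower. The lysosomal cystine exporter gene Ctns gave 80.9 against 73.7, and Slc66a1 gave 95.6 against 92.2. Mitochondrial amino-acid carriers split, with a median of -0.061 and 1 of 10 (10%) past 2-fold on each side, near the shares of all kept genes. The downward count was 0 with the upper-quarter filter, log2 of the signal plus 32 or the mean of all bright probe sets. Slc25a12, an aspartate and glutamate carrier, was 2.51-fold higher and Slc25a29, a carrier of basic amino acids, was 2.21-fold lower. Sfxn2 gave 98.9 against 51.1 and Slc25a22 gave 58.3 against 91.5.

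Enzymes that use the carried amino acids were set beside the carriers. Over all kept genes 8.77% passed 2-fold downward and 10.8% upward. Of 16 kept glutamine, glutamate and glutathione genes, 3 (18.8%) passed 2-fold downward and 0 upward, with a median of -0.077. The downward count was 1 with the upper-quarter filter or log2 of the signal plus 32. Oplah and Chac1, both of glutathione breakdown, were 3.27-fold and 2.43-fold lower, while Gclm and Gpx4 were 1.54-fold and 1.48-fold higher. Of 13 kept arginine, ornithine and polyamine genes, 2 (15.4%) passed 2-fold downward and 0 upward. Their median was 0.27, and 0.028 with the upper-quarter filter. With no filter 4 of 18 passed downward and 2 upward, against 14.2% and 15.4% of all genes. Odc1, the first enzyme of polyamine synthesis, gave 1258 (p27delta51) against 3639 (wild type), 2.89-fold lower, and Oat, which acts on ornithine, was 2.60-fold lower. Sat1 was 1.69-fold higher, and Nos3 gave 27.9 against 16.9. Of 16 kept genes for branched-chain amino-acid catabolism, 2 (12.5%) passed 2-fold upward, near the share of all kept genes, and 0 downward. Their median was 0.014. The upward count was 1 with arrays centred on the median and 0 with quantile or loess normalization, log2 of the signal plus 32 or the upper-quarter filter. Bcat2 and Ppm1k were 2.06-fold and 2.11-fold higher, while Mccc1 and Bcat1 were 1.54-fold and 1.26-fold lower. Chac1, Gpt2 and Sesn2 stand on the ATF4 list and on another of these lists.

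**Figure D4:**
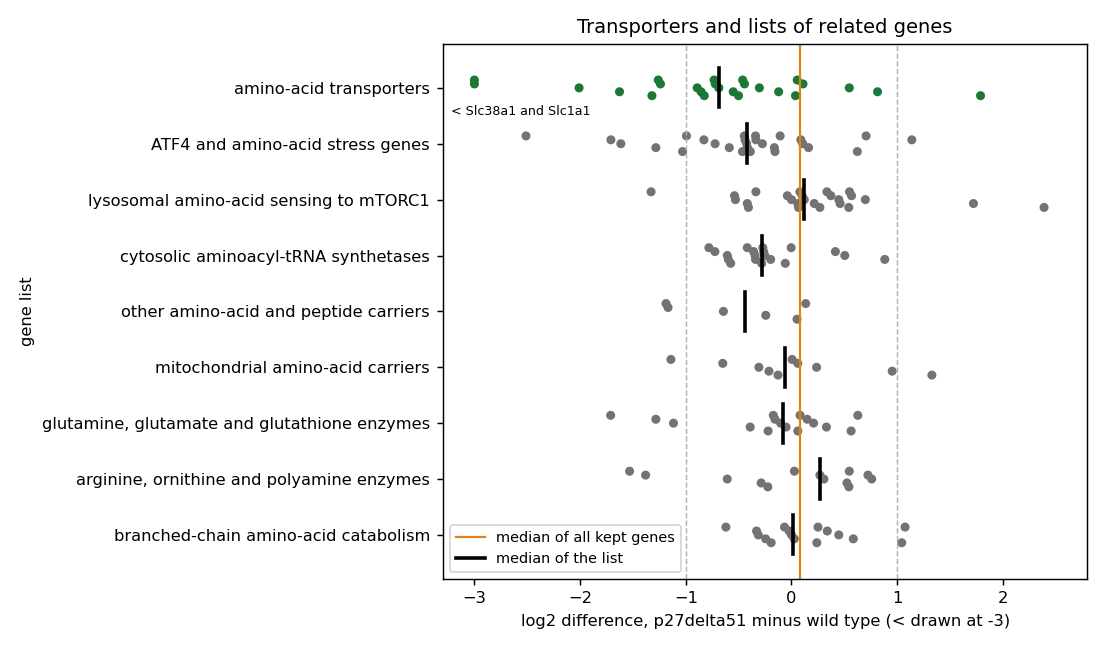
Log2 difference, p27delta51 minus wild type, of the kept genes of the amino-acid transporters and of 8 lists of related genes, 1 point per gene, with each list's median as a black bar, the median of all kept genes as a vertical line and dashed lines at 2-fold. The transporters have the lowest median of the 9, -0.69, followed by the other carriers at -0.44 and the ATF4 genes at -0.42, and Slc38a1 and Slc1a1 are drawn at the axis limit. The place of the other carriers rests on 6 genes and on the brightness limit.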

How the data were processed

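Total RNA of serum-starved p27delta51 and wild type MEFs was read on Affymetrix arrays, 1 for each genotype. The authors deposited linear signal intensities of 45101 probe sets. The submitters' processing notes name RMA and affy, but the intensity values are not on a log scale and their trimmed mean was 150.0 on each array, so which program wrote them is not settled. A second table deposited by the authors holds log2 ratios, change calls and change p-values of the same arrays.

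Names of 34945 probe sets with 1 gene symbol came from the platform annotation, and 34741 of them matched the gene table of GRCm38.p6, which supplied current symbols. The brightest probe set by mean signal stood for a gene, log2 was taken with 0.1 in place of 0, and genes with a mean of at least 22.2 were kept. Called means at least 2-fold. The number of arrays limits the precision. Sample columns left unused number 0. All members were named or counted, with, for each list of related genes, up to 2 kept genes with the largest difference in each direction. Members and lists were chosen with earlier results of these data known. The counting step was tested on simulated data with planted differences. These were well past 2-fold, in genes far above the brightness limit and with little noise. The test therefore checks the counting alone and not calls near 2-fold or near the floor. Python 3.11.15, pandas 2.3.3 and numpy 2.4.6 were used. Alternatives were other filters, scalings, pseudocounts, probe set rules, thresholds and the authors' ratios.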

Additional observations from a re-analysis of the deposited data

Results flagged for a closer look

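Of 29 probe sets of kept members that were not chosen and lay above the floor on both arrays, 3 lay on the other side of 0 from the chosen probe set and at least 2 SD away from it, with the SD of 0.23 found over all genes. With the SD of 0.37 of the kept members, only Slc38a10 would pass. They stand here because the comparison of chosen probe sets leaves them out. For Slc38a10 such a probe set had a log2 difference of 0.53, against -0.89 for the chosen one, and the authors' deposited table listed -0.3 for it. Its name carries the suffix _x_at, which marks probes that may match other sequences. For Slc7a4 the difference was 0.074 against -0.44. For Slc7a7 it was -0.46 against 0.054.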

How the results depend on the processing

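The median of the kept members stayed below 0 under all 10 alternatives run, between -0.80 with the authors' deposited log2 ratios and -0.46 with no filter. The count at least 2-fold lower was 4 of 14 with the upper-quarter filter, 13 with a 1.5-fold threshold and 4 with a 3-fold threshold, where 6.71%, 15.9% and 5.21% of all genes were lower. With no filter it was 10 of 39, against 14.2% of all genes, and with log2 of the signal plus 32 it was 5 of 25, against 6.20%. The remaining settings gave 7 or 8 of 25, against 8.66% to 9.54% of all genes. The count at least 2-fold higher was 3 of 39 with no filter, against 15.4% of all genes. With a 1.5-fold threshold 2 of 25 were higher, against 21.7% of all genes. The 2-fold count was 0 of 25, against 10.6% of all genes, when probe sets were ranked by mean log2 signal, which took a probe set of Slc1a3 at 0.99. With log2 of the signal plus 32, Slc43a1 and Slc43a3 were at -0.97 and -0.96, short of 2-fold, and with the mean of all bright probe sets Slc7a1 was at -1.08. Slc38a9, Slc7a7 and Slc7a11 crossed 0 under at least 1 alternative. Values of single members moved by more than the spread between probe sets in 29 of 200 comparisons, medians of the related lists in 3 of 80, and their counts by over 1.5 times in 18 of 160. No paired analysis was possible because each genotype has 1 array. Leaving out a replicate was not possible either. Signals under the floor limit what can be said of 9 members on both arrays and of 6 on 1 array.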
